A study of Sesbania grandiflora with 21 samples.

Results

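The genes whose transcript levels varied least over the leaf libraries of Sesbania grandiflora, a legume tree, are described here. They were found by ranking 9323 assembled genes by the coefficient of variation (CV, the standard deviation over the mean) of their CPM (the count scaled to a common library total) over 20 libraries, and the 150 genes of lowest CV were taken. The ranked genes had a mean of 20 CPM or more over those libraries, and the 100 genes most abundant in the control label ck had been left out. In all, the deposited table holds 97500 assembled genes.

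Leaf RNA was sequenced in 7 groups of 3 libraries. Besides ck these are the single treatments DS and Y and the combination DS+Y, each with a suffix -L or -S. The design text deposited with the series speaks of fewer groups than the sample titles give, and the titles are followed here. The labels give no expansion of DS, Y, L or S, and no plant age, cultivar, dose or duration. The series title names drought and salt stress in combination, and ck is taken as the control label. Separate plants are not stated as the source of the libraries in a group, so the spread between them, which the p-values measure, may be technical. In whole leaves, fewer cells of a type and less RNA per cell cannot be told apart, and with no gene names the leaf label was not checked against markers. Library totals ran from 16431940 to 20138058 counts. DS+Y-S replicate 1 was left out of the ranking by the rule. That library stands apart from the rest, with counts on 36755 genes against 47279 to 61454 in the others, so DS+Y-S is represented in the ranking by 2 libraries and every other group by 3.

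Genes of steady transcript level serve as internal references. In RT-qPCR the level of a gene of interest is set against genes that the treatment leaves alone, and classical choices in plants are actin, tubulin, elongation factor 1-alpha, ubiquitin and GAPDH. Each of these can itself move under drought or salt, which is why reference genes are chosen anew for a tissue and a stress. Between-sample scaling of RNA sequencing rests on a related idea, that most genes, or a chosen part of them, stay level. The deposited identifiers come from a de novo assembly, the reconstruction of transcripts from reads without a genome, and the file does not pair them with gene names. Which of the 150 encode a classical reference gene was therefore not determined, no sequence is printed, and members other than 3 are given by their rank of CV, rank 1 being the steadiest.

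The CV of the 150 members ran from 8.62% to 13.4%, with a median of 12.3%, and that of the other 9173 ranked genes had a median of 32.9%. These values chose the members and are a description. The member of rank 150 had a CV of 13.42% and the first gene outside had 13.42% as well, at 30.2 and 23.3 CPM on average, so the list ends in a continuous run of values and not at a gap. In every member the highest of the 20 libraries was less than 2 times the lowest, with ratios from 1.36 to 1.84 and a median of 1.58. Among the other ranked genes 9.20% stayed within that limit.

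**Figure D1:**
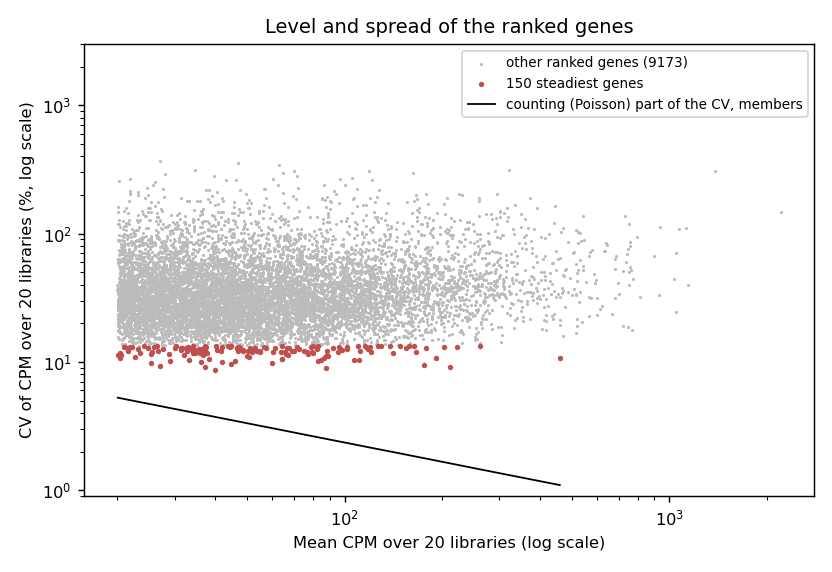
Each point is 1 ranked gene, placed by its mean CPM over 20 libraries (horizontal, log scale) and the CV of its CPM over the same libraries (vertical, log scale), with the 150 members in red and the other 9173 ranked genes in grey. The members lie along the lower edge from 20.05 to 460 CPM, and the black line, the part of their CV that counting alone gives, runs below all of them from 5.26% down to 1.097%.

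The members averaged from 20.05 to 460 CPM with a median of 51.1 CPM. The other ranked genes had a median of 49.97 CPM and reached 2210 CPM, so the upper end of the ranked range held no member. Of the 150, 73 averaged under 50 CPM, 49 between 50 and 100 CPM and 28 at 100 CPM or more. Per length, the members' mean levels ran from 10.7 to 422 FPKM (the authors' value per kilobase of transcript and per sequencing depth) with a median of 36.0 FPKM. At the median, counting error made up a small part of the members' spread. A Poisson count at their mean depth has a CV of 1.097% to 5.26%. That is a median of 7.27% of the variance observed and at most 24.1%. It was above 10% of the variance in 50 of the 150 (33.3%) and in 0.480% of the other ranked genes, whose CV is larger by the choice. The members' lowest count in any of the 20 libraries was 273. PCR duplicates are not marked in counts, so this covers counting error only.

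The steadiest member in CPM was TRINITY_DN333_c0_g1, with a CV of 8.62% around a mean of 39.9 CPM. It was at 37.3, 47.5 and 44.1 CPM in ck, at 34.5, 39.9 and 38.1 CPM in DS-L and at 37.1, 40.1 and 42.4 CPM in DS-S. In Y-L it was at 42.2, 34.2 and 37.7 CPM, and in Y-S at 41.8, 41.4 and 41.5 CPM. The combined groups gave 40.2, 43.2 and 37.5 CPM in DS+Y-L and 34.7 and 41.4 CPM in DS+Y-S replicates 2 and 3. No treated group separated from ck, whose own libraries span most of the gene's range, and the 3 Y-S libraries were the closest together. The group means ran from 37.5 ± 2.75 CPM in DS-L to 43.0 ± 5.16 CPM in ck (SD, n = 3 each). In DS+Y-S replicate 1, outside the ranking, the gene was at 29.5 CPM, below all of the other 20. In FPKM its CV over the 20 libraries was 15.6%. The DS+Y-L libraries were at 100, 105 and 69.3 FPKM, and the first 2 of these were its highest values.

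TRINITY_DN3234_c0_g1, of rank 22, was the most abundant member both in CPM, at a mean of 460 CPM, and per length, at 422 FPKM. Its values were 547, 474 and 413 CPM in ck, 480, 429 and 525 CPM in DS-L and 528, 489 and 486 CPM in DS-S. They were 451, 378 and 386 CPM in Y-L and 463, 502 and 484 CPM in Y-S. In DS+Y-L they were 394, 441 and 411 CPM, and in DS+Y-S replicates 2 and 3 they were 426 and 493 CPM. The Y-L and DS+Y-L means were the lowest, at 405 ± 40.1 and 415 ± 23.7 CPM (SD, n = 3 each), and both groups overlapped ck at 478 ± 67.0 CPM (SD, n = 3). Its counting part was the smallest of all members, 1.06% of the variance.

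The member that departed furthest from ck in the fit was TRINITY_DN321_c0_g1, of rank 93, which stood higher in DS+Y-L. Its values were 135, 164 and 154 CPM in ck and 208, 207 and 228 CPM in DS+Y-L, without overlap. It was at 184, 206 and 164 CPM in DS-L and at 160, 174 and 204 CPM in DS-S. Y-L gave 183, 157 and 169 CPM, Y-S 177, 166 and 181 CPM, and DS+Y-S replicates 2 and 3 gave 189 and 164 CPM. Every treated group mean lay above that of ck, and DS+Y-L stood apart from the ck libraries by the widest margin. The log2 fold change of DS+Y-L against ck was 0.60 (SE 0.22), which did not pass the threshold (edgeR adjusted p = 0.159, from 0.110 to 0.736 in the other edgeR fits of this contrast), while DESeq2 gave 0.62 (SE 0.15, adjusted p = 0.00324). This gene was singled out for its size of change, and the members were chosen on the same libraries, so neither p is support for a change.

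**Figure D2:**
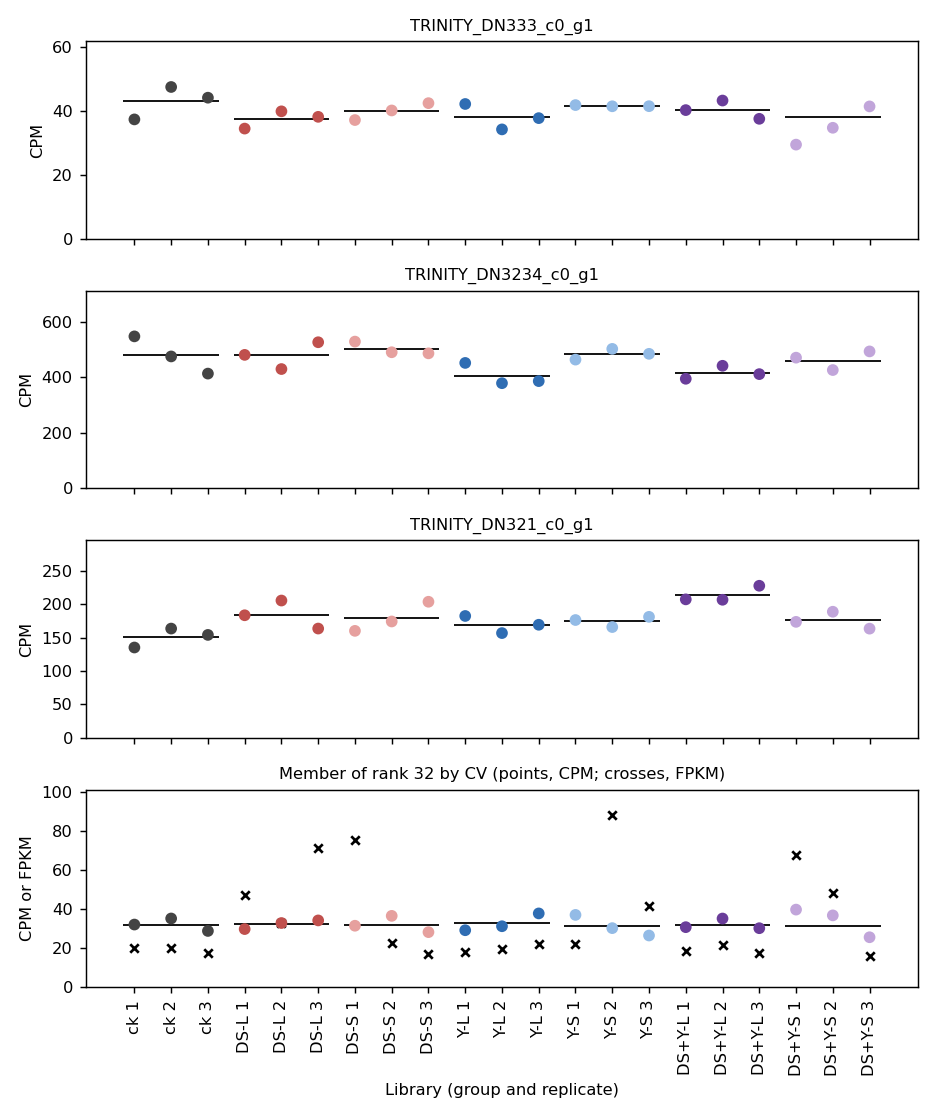
Values in all 21 libraries for TRINITY_DN333_c0_g1, TRINITY_DN3234_c0_g1, TRINITY_DN321_c0_g1 and the member of rank 32, with each point a library in CPM, black lines at group means (DS+Y-S over replicates 2 and 3) and crosses at the authors' FPKM in the lowest panel. The first 3 genes vary within a narrow band in the 20 ranked libraries, and the member of rank 32 is level in CPM while its FPKM runs from 16.25 to 88.2.

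Group means close to ck follow in part from the choice of genes with a low CV over these libraries, so the next values describe the members and test nothing. In all 150, every one of the 6 treated group means lay within 1.5-fold of the ck mean in CPM, against 35.7% of the other ranked genes. In 120 of the 150 all 6 lay within 1.25-fold (8.69% of the others), and in 9 within 1.1-fold (0.196% of the others). The ratio of the highest to the lowest of the 7 group means had a median of 1.252 in the members and ran from 1.05 to 1.43. The member with the smallest ratio, of rank 32, averaged 31.2 CPM in its lowest group, DS+Y-S, and 32.8 CPM in its highest, Y-L. At the other end the member of rank 135 averaged 20.004 ± 2.76 CPM in ck and 28.7 ± 1.65 CPM in Y-S (SD, n = 3 each), with the ck libraries at 17.5, 19.6 and 22.9 CPM and the Y-S libraries at 28.3, 27.3 and 30.5 CPM.

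How a member's small variation divides into a part between and a part within groups was not set by the rule, though it comes from the same values. The between-group share of the sum of squares had a median of 37.3% in the members and 38.7% in the other ranked genes, with ranges of 1.97% to 72.0% and 1.22% to 85.7%. With 7 groups over 20 libraries this share lies well above 0 even without any difference between treatments, so its size does not measure one. The CV within groups had a median of 11.6% in the members and 30.9% in the others, a difference that the choice by total CV brings with it. The lowest between-group share, 1.97%, belonged to the member of rank 32 and the highest, 72.0%, to that of rank 135.

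By mean CPM, 107 of the 150 were higher in Y-S than in ck and 43 lower, with a median ratio of 1.06. In DS-S 99 were higher, with a median ratio of 1.04, and in DS+Y-L 97, with a median ratio of 1.05. Y-L and DS-L were nearly balanced, with 84 and 72 of the 150 higher. In DS+Y-S, represented by 2 libraries, 103 were lower than in ck and the median ratio was 0.932. These comparisons share the 3 ck libraries. The other ranked genes leaned the same way in Y-S, DS-S and DS+Y-L, with 60.7%, 59.1% and 55.6% higher than ck and median ratios of 1.07, 1.06 and 1.07, and in DS+Y-S, with 47.3% higher and a median ratio of 0.973. The highest of the 7 group means fell in DS+Y-L for 40 members (26.7%, against 23.7% of the other ranked genes) and in Y-S for 32 (21.3%, against 7.93%). The lowest fell in DS+Y-S for 65 (43.3%, against 17.8%). These values come from the libraries that chose the members and are a description. In the edgeR fit, which used all 21 libraries and TMM scaling (libraries set level by a trimmed mean of gene ratios), fold changes were above 0 in 97 members for DS-L, 124 for Y-L and 121 for DS+Y-L, in 75 for DS-S, in 95 for Y-S and in 63 for DS+Y-S with all 3 of its libraries. For DS-L the larger count was thus of lower values by mean CPM, 78 of 150, and of higher values in the fit, and for DS-S the fit gave equal counts.

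In the edgeR fit over all 38211 genes that passed the low-count filter, all 150 members were tested and 0 were called among the 7 groups at an adjusted p under 0.05, where 0.0837% of all genes were called. The smallest edgeR adjusted p of a member was 0.625, and 0 of the 150 passed an unadjusted p under 0.05. Against ck, 0 members were called in DS+Y-L, where 0.068% of all genes were, and 0 in each of the other 5 treated groups, where 0% of all genes were called. At an unadjusted p under 0.05 there were 5 members in DS+Y-L, 2 in Y-L and 1 in DS+Y-S, all higher than ck, and 0 in the other 3 groups. That unadjusted threshold was passed by 9.93% of all tested genes in Y-L, by 18.1% for DS+Y-L, by 8.38% for DS+Y-S and by 11.6% among the 7 groups. For DS-L, DS-S and Y-S the shares of all tested genes were 8.41%, 3.21% and 3.18%. DESeq2 called 1 member, TRINITY_DN321_c0_g1 in DS+Y-L against ck, where it called 2796 genes in all. Because low spread over these libraries chose the members, the absence of calls follows in part from the choice, and nothing is read from it.

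The fitted fold changes give the members' scale of variation. The median absolute log2 fold change against ck ran from 0.08 in DS-S to 0.17 in Y-L and DS+Y-L, where all tested genes had medians of 0.37, 0.58 and 0.66. Over all 6 contrasts the members' log2 fold changes lay between -0.49 and 0.60. The fit, on the TMM scale with all 21 libraries, gave a member a median standard error of 0.23. The members' own CV within groups corresponds to 0.137 for 3 libraries against 3. That CV is in CPM over the 20 libraries in which low spread chose the members, so the values are not like for like. The median biological CV fitted to a member was 24.9%, and the trend over genes at the members' levels stood at 43.1%.

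Libraries without overlap between a treated group and ck were counted in CPM as a second description. In DS+Y-S against ck, with 2 libraries against 3, 34 members did not overlap, 9 of them higher, where 24% of all tested genes did not overlap. In DS+Y-L there were 29, 23 of them higher (21.6% of all tested genes), and in Y-L 23, 22 of them higher (19.1%). In Y-S there were 19, 18 of them higher (9.37%), in DS-L 18, 7 of them higher (17.6%), and in DS-S 14, 12 of them higher (9.43%). The members' shares ran from 9.33% to 22.7%. These genes were chosen on the same libraries, and nothing is read from the counts.

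**Figure D3:**
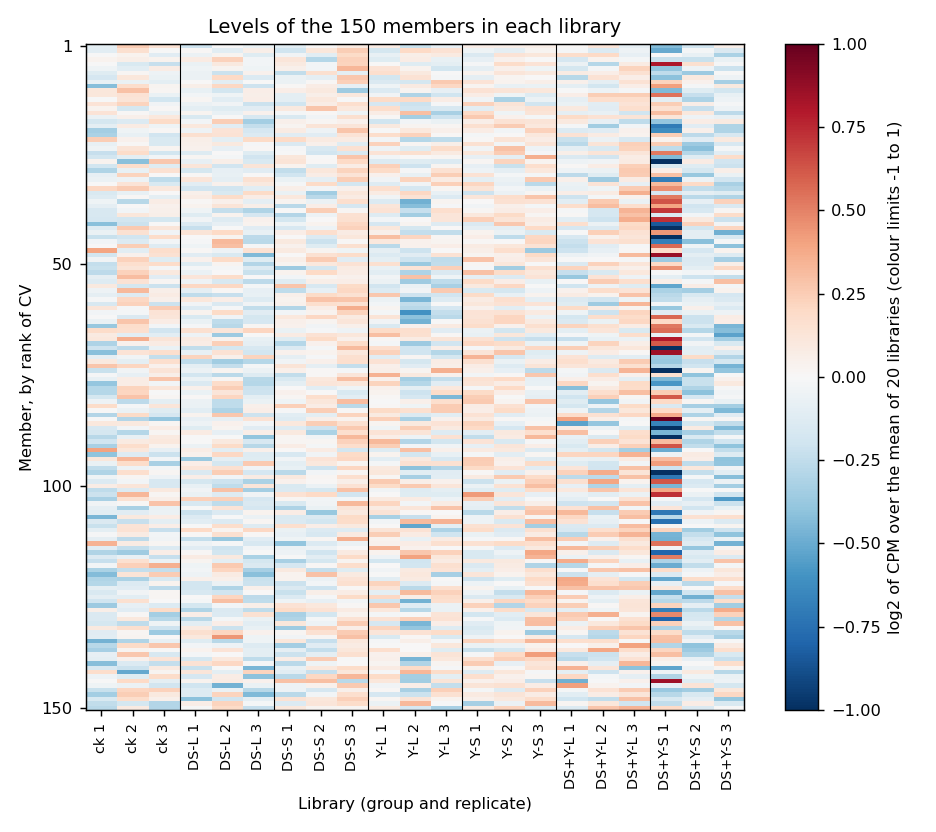
Each row is a member, ordered by rank of CV, and each column a library, with colour giving the log2 of its CPM over its mean of the 20 ranked libraries, from blue (-1) through white (0) to red (1). Pale columns in the 20 ranked libraries contrast with DS+Y-S replicate 1, in which 45 members were below and 37 above the range of the other libraries.

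Taken as 1 quantity, the 150 members held about the same share of every library by column sums. For the 20 ranked libraries this follows in part from choosing the members by steady CPM. Their summed level averaged 10368 CPM over the 20 libraries, with a pooled SD of 378 CPM between libraries of a group, and their share of counts ran from 0.957% in DS+Y-S replicate 2 to 1.13% in DS-S replicate 3. The group means were 10219 ± 372 CPM in ck, 10191 ± 269 in DS-L, 10629 ± 571 in DS-S and 10311 ± 364 in Y-L. They were 10683 ± 105 CPM in Y-S and 10608 ± 478 in DS+Y-L (SD, n = 3 each), and 9720 ± 209 CPM in DS+Y-S (SD, n = 2). Of the 2 DS+Y-S libraries 1 lay below the ck range of 9805 to 10527 CPM and 1 inside it, and the 3 Y-S libraries lay above that range. The sum in DS+Y-S replicate 1, which had no part in the choice, was 10437 CPM, inside the range of the other libraries.

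DS+Y-L replicate 3 was the highest of the 20 libraries for 27 members and for 4.89% of the other ranked genes, and DS-S replicate 3 for 16 members and 5.34% of the others. DS+Y-S replicate 3, Y-L replicate 2 and DS+Y-S replicate 2 were the lowest for 29, 23 and 20 members, and for 9.15%, 16.5% and 2.59% of the others. Each library's median relative level, the middle of the 150 ratios of its CPM to the gene's mean, ran from 0.921 in DS+Y-S replicate 2 to 1.09 in DS+Y-L replicate 3. In the other ranked genes the same median ran from 0.824 in Y-L replicate 2 to 1.06 in DS-S replicate 3. ck replicate 1, DS-L replicate 3 and Y-L replicate 2 showed the widest gap between members and other genes, with medians of 0.930, 0.936 and 0.979 in the former and 0.825, 0.837 and 0.824 in the latter. In these libraries the 10 most abundant genes took 9.07%, 10.6% and 8.45% of the counts, against 4.26% to 8.06% in the other 18, and the part of this in the gap was not tested.

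The choice of scale bears directly on which genes are steadiest. The TMM factors of the 21 libraries ran from 0.813 to 1.21, so a gene level in CPM need not be level after TMM scaling. On the TMM scale the members' median CV was 13.9%. A lower CV than in CPM was found in 37 of the 150 (24.7%) and in 44.0% of the other ranked genes. The members were chosen for a low CV in CPM, so a higher CV on another scale follows in part from the choice. Their summed level ran from 9077 to 12449 CPM over the 20 libraries, with an SD of 973 CPM within groups. Their median relative level then ran from 0.871 in ck replicate 2 to 1.19 in Y-L replicate 2 over the 20 libraries. In DS+Y-S replicate 1 it was 0.776, below all of these, and that of the other ranked genes was 0.789. The place of that library inside the range of the others thus holds for the members' sum in CPM. Ranked anew on that scale, 46 of the 150 stayed among the 150 steadiest, 94 were among the first 500, and the median rank was 331. TRINITY_DN333_c0_g1 came to rank 40 and TRINITY_DN3234_c0_g1 to rank 535. The 150 genes steadiest on the TMM scale had a median CV of 11.1% on it and of 14.8% in CPM.

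**Figure D4:**
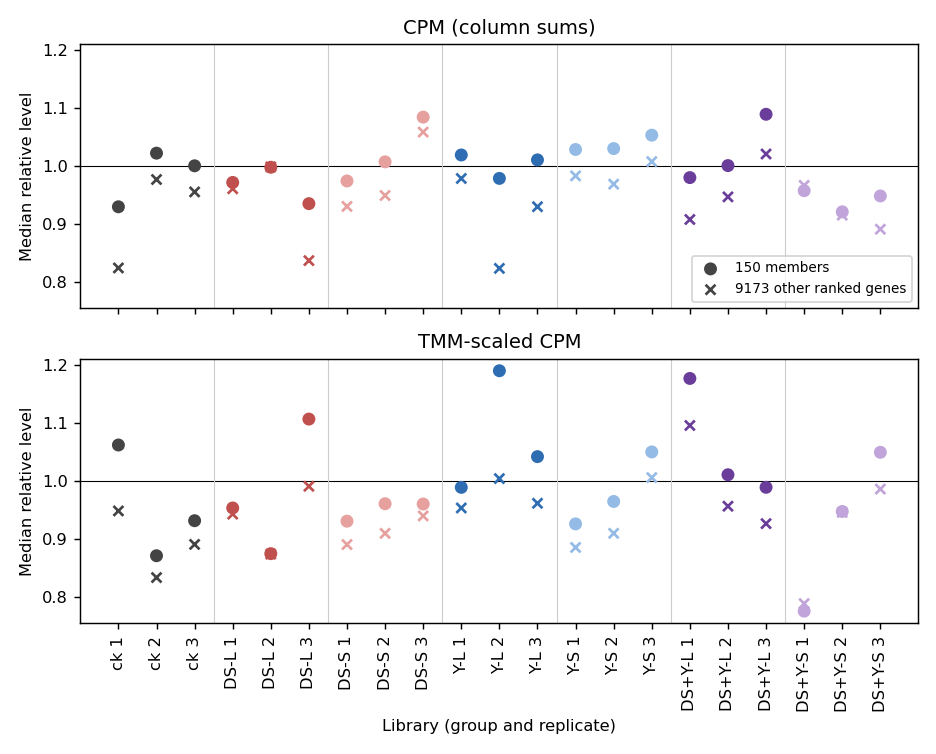
Median relative level (CPM over the gene's mean of the 20 ranked libraries) in each library, for the 150 members (circles) and the other 9173 ranked genes (crosses), on the CPM scale above and after TMM scaling below, with colours by group. On the CPM scale the members lie between 0.921 and 1.09, and after TMM scaling between 0.776 in DS+Y-S replicate 1 and 1.19 in Y-L replicate 2.

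Correlations between members were higher on the TMM scale, which follows in part from choosing genes level in CPM. TMM scaling divides all genes of a library by 1 factor, and genes level in CPM then share its variation. Over the 11175 pairs of members the median Pearson correlation across the 20 libraries was 0.151 in CPM and 0.374 after TMM scaling, and 8.44% and 30.4% of pairs exceeded 0.5. These pairs share libraries and library totals, and the values are a description. The leading axis of the members' relative levels held 20.1% of their variation in CPM, with 139 of the 150 members on its positive side, and 46.6% after TMM scaling, with 149. In CPM its ends were DS+Y-L replicate 3 and DS-S replicate 3 at 1.31 and 1.01, and ck replicate 1, DS+Y-S replicate 2 and DS-L replicate 3 at -1.17, -1.01 and -0.99. Every group except Y-S and DS+Y-L had at least 1 library on the negative side.

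DS+Y-S replicate 1 offered the same measure in a library that the rule had not used. There the members' median relative level was 0.958 and that of the other ranked genes 0.967. Of the 150 members, 68 lay inside the range of the other 20 libraries, 45 below it and 37 above. The corresponding shares of the other ranked genes, whose ranges are wider, were 79.4% inside, 11.4% below and 9.28% above. By size of departure the members were nearer their means. Of the members 142 of 150 (94.7%) were within 2-fold and 74 (49.3%) within 1.25-fold, against 82.7% and 36.9% of the other ranked genes. On the log2(CPM + 0.5) scale the median absolute log2 ratio was 0.36 in the members and 0.45 in the others. With 1 library there is no test of this difference, and for members and others under 30 CPM the 2 medians were 0.48 and 0.49.

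The departures in that library were smaller in the abundant members. For the 28 members at 100 CPM or more the median absolute log2 ratio was 0.28, where the other ranked genes of that level had 0.45. By rank of CV the medians were 0.40 for ranks 1 to 50, 0.39 for ranks 51 to 100 and 0.28 for ranks 101 to 150, so the steadiest members did not depart least. The median levels of these ranks were 43.4, 52.0 and 54.8 CPM. The member of rank 27 was the furthest down, at 13.9 CPM there against 38.2 to 61.6 CPM elsewhere. The member of rank 85 was the furthest up, at 72.4 CPM against 27.8 to 47.9 CPM. No member was at 0 counts there, and 26 of the other ranked genes were.

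**Figure D5:**
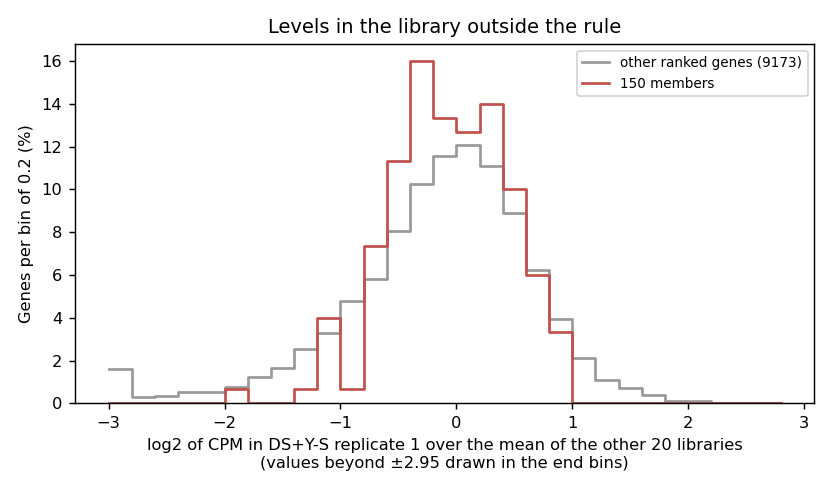
Share of genes (vertical, percent per bin of 0.2) by the log2 of their CPM in DS+Y-S replicate 1 over their mean in the other 20 libraries (horizontal), for the 150 members in red and the 9173 other ranked genes in grey. Of the members 94.7% lie within 2-fold of their mean, and of the other genes 82.7%.

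A readout that the ranking did not use is the length implied by each count and the FPKM deposited beside it. This length may move between libraries with the estimated mix of a gene's assembled transcript forms, though how it was set is not given. It could be followed in all 20 libraries for 150 of the 150 members and for 98.0% of the other ranked genes. The members' median implied lengths ran from 524 to 5028 bases with a middle value of 1392 bases, and that of the other genes was 1409 bases. After removing shifts common to a library, the implied length had a median CV of 3.18% in the members and 3.37% in the other ranked genes, and exceeded 10% in 12.7% and 11.8% of them. TRINITY_DN333_c0_g1 was among the members above 10%, at 10.1%, with implied lengths from 401 to 602 bases.

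The member of rank 32 had the largest CV of implied length among the members, 41.0%. Its level was 25.6 to 37.9 CPM in the 20 libraries, while its implied length fell into a longer and a shorter range. It was 1590, 1751 and 1655 bases in ck, 1642, 1591 and 1701 bases in Y-L and 1642, 1639 and 1709 bases in DS+Y-L. In DS-L it was 633, 1000 and 479 bases, shorter in all 3 libraries. The other groups were mixed, with 416, 1625 and 1654 bases in DS-S, 1679, 343 and 640 bases in Y-S, and 585, 761 and 1577 bases in DS+Y-S replicates 1 to 3. Its FPKM accordingly ran from 16.25 to 88.2 and had a CV of 67.2% against 11.3% in CPM. The members of ranks 54 and 77, had FPKM CVs of 43.3% and 43.6%, and 6 members in all exceeded 20%. Ranked by FPKM in place of CPM, 101 of the 150 stayed members.

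Each of the 150 had a different DN number in its identifier. Genes that share a DN number are called a cluster here, whatever number follows the letter c. A cluster of 1 gene held 67 of the members (44.7%) and 43.9% of the other ranked genes. For 31 members the cluster also held another ranked gene. Whether such genes are close copies or allelic variants, between which reads could be divided, was not determined. TRINITY_DN333_c0_g1 was 1 of 5 genes in its cluster, whereas TRINITY_DN3234_c0_g1 and TRINITY_DN321_c0_g1 were alone in theirs.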

How the data were processed

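Per the file headers, the deposited table has a count column and an FPKM column for each library. For assembler, aligner and counter, names and versions were not given in the labels or headers; the identifiers have the Trinity form. Counts are whole numbers, and whether estimated counts were rounded is not known. RNA was enriched with oligo(dT) beads, per the labels' protocols. CPM is a count over its column sum. The members, lists and tests were chosen with earlier results of these data known. Counts were tested with edgeR 4.0.16 (filterByExpr by group, TMM, glmQLFit and glmQLFTest, all 21 libraries, no replicate block) in R 4.3.3, with Benjamini-Hochberg adjustment over 38211 genes and a threshold of 0.05. The procedure was tested on simulated data. DESeq2 1.42.0 was an alternative. Implied length was count / (FPKM × library total), used with at least 20 counts and an FPKM of 1 in each library. Log2 ratios in DS+Y-S replicate 1 used a pseudocount of 0.5 CPM. The identifiers printed are the members of lowest CV, highest mean CPM, highest mean FPKM and largest absolute log2 fold change against ck, where 1 gene took 2 of these places; members given by rank were chosen after their values were seen. Lists of named reference genes could not be applied, since the file holds no names. Precision follows from totals of 16431940 to 20138058 counts per library.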

Additional observations from a re-analysis of the deposited data

Results flagged for a closer look

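The member of rank 135 moved in opposite directions between the suffixes of 2 treatments. Its mean CPM in Y-L was 0.852 times that in Y-S, with Y-L libraries at 24.0, 25.3 and 24.0 CPM and Y-S libraries at 28.3, 27.3 and 30.5 CPM. In the combined treatment DS+Y-L was 1.096 times DS+Y-S, with 27.2, 27.1 and 24.1 CPM against 23.6 and 24.1 CPM in DS+Y-S replicates 2 and 3. Within these libraries those of a suffix lay on 1 side in each treatment, which is what singled it out, though the closest values in the combined treatment were both 24.1 CPM. DS+Y-S replicate 1, left out of the ranking, was at 29.8 CPM, above all 3 DS+Y-L libraries, so the pattern in the combined treatment is lost when it is counted. The difference between the treatments was not tested.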

How the results depend on the processing

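Of the 150 members, the ranking kept 46 with TMM scaling, 52 with DESeq2 size factors and 77 with a minimum mean of 50 CPM. It kept 101 to 150 under FPKM, the SD of log2(CPM + 1), removal of the Poisson part, a minimum of 10 CPM, no removal of abundant genes and all 21 libraries, and 116 to 143 when 1 library was left out. In all 20 of the latter sets 97 were kept. The members' median relative level in DS+Y-S replicate 1 was 0.776 with TMM and 0.816 with DESeq2 size factors, below the 0.958 in CPM. That of the other ranked genes was 0.789 with TMM and 0.967 in CPM. The between-group share ranged from 34.2% to 42.0% over its alternatives.

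The count of members called stayed at 0 in the 7 comparisons under every alternative fit except DESeq2 in DS+Y-L against ck, with 1. Counts over all genes moved. Among the 7 groups edgeR called 32, against 9331 without the low-count filter, 2245 in DESeq2, 8 with the replicate block and 1 to 521 with 1 library left out (1 without DS+Y-L replicate 1, 521 without replicate 3). For DS+Y-L against ck it called 26, against 3930 without the filter, 2796 in DESeq2, 0 with the replicate block, 46 without DS+Y-S replicate 1, and 0 to 1841 with 1 of its own libraries left out (0 without any 1 ck library, 1841 without DS+Y-L replicate 3). From 0, the counts rose without the filter to 1601 in DS-L, 762 in DS-S, 1274 in Y-L, 615 in Y-S and 1525 in DS+Y-S, and in DESeq2 to 484, 97, 265, 79 and 355. Leaving out 1 library gave 0 to 15 in DS-L (15 without replicate 3) and 0 to 1 in DS+Y-S. The cause was not tested. The replicate block changed no call of a member. Correlations of same-numbered libraries with ck, taken on deviations from group means, ran from -0.307 to 0.480, above 0.1 in 7 of 18 pairs. Whether same-numbered libraries share more than a number is not given by the labels and was not tested.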

Other observations

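Some libraries recurred where a member's implied length moved. Among the 19 members whose implied length had a CV above 10%, Y-L replicate 2 was under 0.8 times the member's median length in 6, and DS-S replicate 3, DS+Y-L replicate 1 and DS+Y-S replicate 2 in 4 each. DS+Y-S replicate 1 was above 1.2 times it in 10 of the 19, DS-L replicate 2 in 6 and ck replicate 2 in 5. Shifts common to a library were removed in choosing the 19 but not in these counts. Over all ranked genes the median ratio to a gene's median length ran from 0.975 in DS+Y-L replicate 1 to 1.04 in DS+Y-S replicate 1. In Y-L replicate 2 that median was 0.976. How much of each count such a shift accounts for was not tested, so the order of the libraries is not settled.

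A smaller set ranked among the steadiest on each scale over the same 20 libraries. In 36 of the 150 members the gene was among the 150 steadiest in CPM, with TMM scaling, with DESeq2 size factors and in FPKM. The set holds the member of rank 27, which was the furthest down in DS+Y-S replicate 1, at 13.9 CPM, a library outside these rankings. The TMM and DESeq2 size factor rankings shared 131 of their 150 genes with each other. None of this names a function for these genes, since the file pairs no names with them.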
